A study of Mus musculus with 28 samples.

Results

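Bone morphogenetic protein (BMP) signalling and the inhibitor of DNA binding (Id) genes were followed as 8 genes chosen by name: the target genes *Id1*, *Id2* and *Id3*, the ligand *Bmp4*, the receptor *Bmpr1a*, and the signal transducers *Smad1*, *Smad5* and *Smad6*. All 8 were among the 15384 genes with a value per library, joined by gene identifier to the chromatin RNA counts, the 2 tables of mean expression and the 2 peak lists. The cells were mouse embryonic stem cells (mESCs) of the E14 line, grown in 15% serum with 10 ng/ml leukaemia inhibitory factor (LIF). Of the 2 tables of mean expression, 1 also pooled neural progenitor cells. These came from embryoid bodies given 1 µM retinoic acid for 4 days, followed by 3 days without LIF. Control cells carried a scramble vector and knock-down (KD) cells a pair of short hairpin RNAs against *Ssrp1*, which encodes 1 of the 2 subunits of the histone chaperone FACT (the other is SUPT16). Puromycin at 2 µg/ml was given 48 h after transfection for 24 h in both groups, and RNA was depleted of ribosomal RNA before sequencing. The RNA-seq values per library came from 4 control and 4 KD biological replicates with added spike-in RNA. FACT binding came from peak lists of SSRP1 and SUPT16 ChIP-seq, each called on 2 replicates together, in cells with no KD. The hairpins were delivered as a pair, so effects of either one alone cannot be told apart, and the cells were a selected pool rather than a clone.

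BMP ligands bind a pair of type I and type II serine-threonine kinase receptors on the cell surface. The type I receptor phosphorylates the receptor Smads (Smad1, Smad5 and Smad9), which join the common Smad4, enter the nucleus and bind DNA at GC-rich sites and at the Smad binding element. The *Id* genes are classical direct targets of this pathway. Their proteins lack a DNA-binding region and hold E proteins in inactive dimers, and in mESCs grown in serum and LIF the BMP and Id arm is known for restraining neural differentiation. Smad6 and Smad7 are inhibitory Smads that feed back on the receptors.

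The promoters of members that differed between groups, or that lay at a FACT peak, are shown first, because the results below refer to them. RefSeq promoter windows (GRCm38.p6, the same coordinates as mm10 on these chromosomes; 250 bases before to 50 bases after a start site) matched 7 of the 8 members, all but *Id1*. The 250 bases before the start are printed 5′ to 3′ on the gene's strand. Capitals mark GGCGCC, a GC-rich site of Smad1 and Smad5, and GTCTG, the Smad binding element, on either strand (CAGAC on the other), and the motifs do not overlap. The windows are chr12:25096093-25096342 (minus strand) for *Id2*, chr4:136143572-136143821 (plus) for *Id3*, chr8:79399429-79399678 (minus) for *Smad1*, chr13:56702760-56703009 (plus) for *Smad5* and chr9:64022060-64022309 (minus) for *Smad6*.
Id2: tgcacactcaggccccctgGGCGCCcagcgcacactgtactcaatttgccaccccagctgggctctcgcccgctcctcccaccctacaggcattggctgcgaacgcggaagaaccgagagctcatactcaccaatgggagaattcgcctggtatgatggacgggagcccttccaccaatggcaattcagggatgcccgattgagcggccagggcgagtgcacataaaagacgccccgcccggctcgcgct
Id3: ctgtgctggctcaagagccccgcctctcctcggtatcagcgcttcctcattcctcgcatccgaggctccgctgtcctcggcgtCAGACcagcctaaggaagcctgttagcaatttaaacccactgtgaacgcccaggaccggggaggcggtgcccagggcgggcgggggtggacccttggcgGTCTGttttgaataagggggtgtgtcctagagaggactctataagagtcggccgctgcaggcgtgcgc
Smad1: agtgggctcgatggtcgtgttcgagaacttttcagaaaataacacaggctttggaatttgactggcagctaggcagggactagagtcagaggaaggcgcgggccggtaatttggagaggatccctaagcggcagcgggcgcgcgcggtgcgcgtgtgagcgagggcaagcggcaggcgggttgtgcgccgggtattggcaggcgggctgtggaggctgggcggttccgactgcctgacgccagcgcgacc
Smad5: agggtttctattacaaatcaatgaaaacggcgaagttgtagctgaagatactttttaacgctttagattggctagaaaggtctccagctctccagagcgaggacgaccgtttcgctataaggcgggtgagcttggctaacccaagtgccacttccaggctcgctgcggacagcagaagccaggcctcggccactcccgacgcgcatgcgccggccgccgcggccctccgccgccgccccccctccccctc
Smad6: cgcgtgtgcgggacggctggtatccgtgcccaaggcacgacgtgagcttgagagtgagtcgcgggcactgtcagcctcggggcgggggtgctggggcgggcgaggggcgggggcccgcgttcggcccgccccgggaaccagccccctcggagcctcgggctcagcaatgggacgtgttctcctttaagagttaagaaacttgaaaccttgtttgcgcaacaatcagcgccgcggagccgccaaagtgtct
The *Id2* stretch held 1 GGCGCC and the *Id3* stretch 2 GTCTG, while those of *Smad1*, *Smad5* and *Smad6* held neither. Over the full windows, GGCGCC was found for 3 of 7 members (*Id2*, *Bmpr1a* and *Smad5*) and for 13.4% of all 27025 genes with a window. GTCTG was found for 2 of 7 members (*Id3* and a downstream start of *Smad5*) and for 53.2% of genes. The shorter core GGCGC, which every GGCGCC contains, was found for 5 of 7 members against 39.4% of genes. The members' windows held 60.0% to 79.3% G and C, above the median of 52.7% over all windows. These matches describe letters in a window and not binding.

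The KD was checked first. The control libraries (replicates 1 to 4) gave *Ssrp1* library-size values of 260.7, 229.8, 222.6 and 225.8, and the KD libraries values of 24.1, 26.4, 24.9 and 28.9. A library-size value is the authors' gene count divided by a scaling factor of the library. A CPM value on library totals would be 1.10 to 1.21 times as large in control libraries and 0.846 to 0.879 times as large in KD libraries. Values per library are given in the order of the replicates throughout. *Ssrp1* was 9.00-fold lower in KD (log2 fold change -3.15 ± 0.07 SE, adjusted p = 1.18e-22). *Supt16*, the gene of the other subunit, was 1.58-fold higher at the RNA level (0.66 ± 0.06, adjusted p = 5.24e-11), a value that ranged over scalings from 0.03 after quantile normalisation (adjusted p = 0.468) to 1.69 with spike-in scaling. Reads on genes numbered 4602278 to 6680919 per control library and 9433193 to 19856032 per KD library. KD libraries were therefore more deeply sequenced, and single reads weighed more in control values. All 10 ES cell markers had a value, with a summed value of 1709 to 1836 in control and 4915 to 5400 in KD. Summed markers of trophectoderm (89.7 to 100.5 in control, 50.7 to 53.4 in KD), primitive endoderm (35.1 to 52.4 and 10.3 to 13.3), mesoderm (11.6 to 22.4 and 1.52 to 3.34) and fibroblasts (50.0 to 63.7 and 13.1 to 14.9) were lower, and those of neural progenitors (75.7 to 99.0 and 140.8 to 152.0) were higher. *Elf5*, *Foxa2*, *T* and *Mixl1* had no value, and no list was at 0 throughout. These are sums of library-size values, so they do not give the direction of single markers, and they were not formed under other scalings. The sums moved with the groups, and their part in the results below was not tested.

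*Id1* and *Id3*, the most abundant members per kilobase of exon in control cells, differed in opposite directions in KD cells. *Id1* (chr2:152736251-152737410, plus strand), which encodes an inhibitor of E proteins, had library-size values of 61.9, 60.2, 54.2 and 64.4 in control. In KD its values were 102.9, 102.4, 103.7 and 100.2. All 4 KD libraries lay above all 4 control libraries, and the KD values varied little among themselves. The mean was 1.70-fold higher in KD (102.3 ± 1.52 against 60.2 ± 4.36, SD, n = 4), and limma gave a log2 fold change of 0.76 ± 0.06 (SE, adjusted p = 1.87e-11).

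*Id3* (chr4:136143822-136145392, plus strand), a close relative with the same mode of action, had values of 61.4, 52.3, 51.8 and 59.8 in control and of 36.5, 37.2, 40.7 and 40.2 in KD. The groups did not overlap, with KD below control. The mean was 1.46-fold lower in KD (38.6 ± 2.15 against 56.3 ± 4.95, SD, n = 4; log2 fold change -0.54 ± 0.08, SE, limma adjusted p = 3.62e-07).

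*Id2* (chr12:25093799-25096092, minus strand) had values of 28.5, 21.5, 17.9 and 24.5 in control and of 15.8, 17.3, 15.9 and 13.6 in KD. The groups did not overlap, but the gap was narrow: the lowest control library stood at 17.9 and the highest KD library at 17.3. The mean was 1.48-fold lower in KD (15.6 ± 1.54 against 23.1 ± 4.46, SD, n = 4; log2 fold change -0.53 ± 0.12, SE, limma adjusted p = 0.000249). *Id2* rested on 100 to 209 reads per control library. *Id4*, the remaining family member and part of the target list, was low, at 2.51 to 3.97 in control and 4.33 to 5.45 in KD, and did not pass the test (limma adjusted p = 0.0106).

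**Figure D1:**
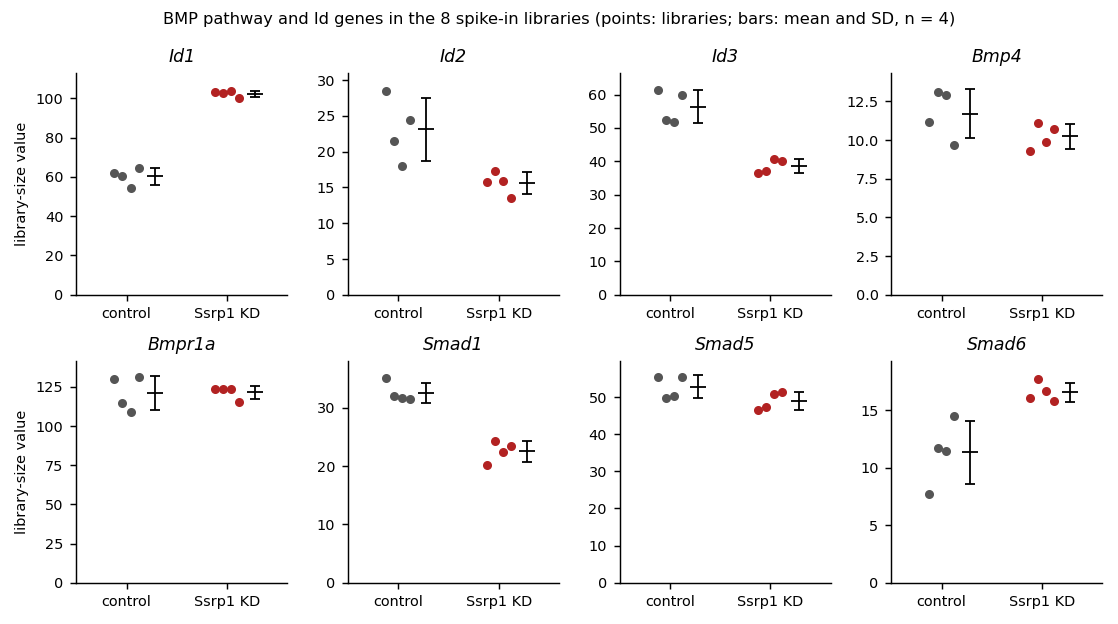
Library-size value (vertical axis, from 0) of the 8 members in control (grey) and *Ssrp1* KD (red) libraries. Points are libraries, and bars give the mean and SD of 4. *Id1* and *Smad6* lie wholly above control in KD, *Id2*, *Id3* and *Smad1* wholly below, and *Bmp4*, *Bmpr1a* and *Smad5* overlap.

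Upstream in the pathway, the ligand and the receptor overlapped between groups. *Bmp4* (chr14:46383525-46390669, minus strand), a main BMP ligand of early embryos, had values of 11.2, 13.1, 12.9 and 9.71 in control and of 9.27, 11.1, 9.91 and 10.7 in KD. Its log2 fold change of -0.18 ± 0.13 (SE) missed the threshold (limma adjusted p = 0.22). A pair of annotated noncoding genes, *Gm15217* and *Gm15222*, overlap *Bmp4* on the opposite strand. The sources used here do not say whether reads were counted by strand, so reads of these genes cannot be told apart from those of *Bmp4*.

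*Bmpr1a* (chr14:34411061-34503336, minus strand), a type I receptor, had values of 129.9, 114.5, 109.1 and 131.3 in control and of 123.5, 123.9, 123.6 and 115.1 in KD. All KD values lay within the wider control range, and the log2 fold change was 0.01 ± 0.06 (SE, limma adjusted p = 0.909).

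Among the Smads, *Smad1* was lower, *Smad6* higher, and *Smad5* overlapped. *Smad1* (chr8:79338395-79399428, minus strand), a receptor Smad, had values of 35.1, 32.0, 31.8 and 31.5 in control and of 20.1, 24.3, 22.5 and 23.5 in KD. All KD libraries were below all control libraries, and the mean was 1.44-fold lower (22.6 ± 1.80 against 32.6 ± 1.70, SD, n = 4; log2 fold change -0.52 ± 0.09, SE, limma adjusted p = 5.93e-06). *Smad5* (chr13:56703010-56742378, plus strand), the other receptor Smad among the members, had values of 55.4, 49.7, 50.4 and 55.4 in control and of 46.6, 47.4, 50.7 and 51.4 in KD. The ranges overlapped, and its log2 fold change of -0.10 ± 0.07 (SE) missed the threshold (limma adjusted p = 0.173).

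*Smad6* (chr9:63953076-64022085, minus strand), an inhibitory Smad and itself a known BMP target, had values of 7.76, 11.7, 11.5 and 14.5 in control and of 16.1, 17.7, 16.7 and 15.8 in KD. The KD libraries were all higher, although control libraries spread widely on 57 to 106 reads each. The mean was 1.46-fold higher in KD (16.6 ± 0.84 against 11.4 ± 2.77, SD, n = 4; log2 fold change 0.56 ± 0.14, SE, limma adjusted p = 0.000807). *Smad7*, the other inhibitory Smad, stood at 45.8 to 53.8 in control and 65.7 to 73.0 in KD (log2 fold change 0.51 ± 0.07, SE, limma adjusted p = 2.27e-07).

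None of the 8 members passed both thresholds of the study in limma (a log2 fold change beyond 1 either way, with adjusted p under 0.01), where 28.6% of all genes were called. The count was also 0 with edgeR (30.6% of genes called) and with DESeq2 (31.0%) on recovered reads. With each of the 3 tools, 5 members had an unadjusted p below 0.05. At least 72.8% of all genes passed that cutoff in limma, since this share passed the stricter adjusted p below 0.01. At an adjusted p below 0.01 alone, 5 of 8 members passed, with *Id1* and *Smad6* higher and *Id2*, *Id3* and *Smad1* lower, beside 72.8% of all genes (35.4% higher and 37.3% lower). The groups did not overlap for the same 5 members, beside 73.3% of all genes (35.8% higher and 37.5% lower). Both shares of members were thus below the share of all genes, and the count of members is not in itself a result about these genes. The median log2 fold change of the 8 members was -0.14, against -0.03 over all genes. In an exact permutation test of each gene (two-sided, 70 regroupings of 8 libraries) the 5 members reached p = 0.0286, the smallest value 4 against 4 libraries allow. *Bmp4* and *Smad5* had p = 0.171 each and *Bmpr1a* had p = 0.943 in the same exact test.

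The direction of single members depended on the scaling. The median log2 fold change of all genes was -0.03 with the library-size values, -0.45 with library totals alone and 0.95 with the authors' spike-in scaling. With spike-in scaling, 3 members passed both thresholds, all higher (*Id1* 1.78, *Smad6* 1.54 and *Bmpr1a* 1.03 on the log2 scale), where 55.1% of all genes were called. The groups did not overlap for *Id1* and *Smad6*, and for 58.0% of all genes, under that scaling. *Id2* (0.47), *Id3* (0.48) and *Smad1* (0.49) changed sign under it but missed the threshold (limma adjusted p = 0.133, 0.12 and 0.113). *Bmp4* (0.80, limma adjusted p = 0.00904) and *Smad5* (0.91, limma adjusted p = 0.00254) changed sign too. The SE of each was 0.29. Spike-in values summed to 0.921 to 1.85 times the library-size values over KD libraries, and to 0.598 to 0.895 times over control libraries. Relative to the median of all genes, the values were nearly the same under these 3 scalings. *Id1* was at 0.80, 0.79 and 0.83 above the median with library size, library totals and spike-in, *Id3* at -0.50, -0.51 and -0.47, and *Smad6* at 0.59 with each. A scaling by library multiplies every gene of the library alike, so only the position relative to other genes, and the ratios below, do not rest on it. The count at adjusted p alone followed the scaling as well. It was 5 higher and 0 lower with spike-in scaling (64.8% of all genes passed), 1 higher and 6 lower with library totals alone (74.5%), and 2 higher and 4 lower after quantile normalisation (62.9%). *Smad6* did not pass with library totals alone (0.14, limma adjusted p = 0.406), nor did *Id2* after quantile normalisation (-0.40, limma adjusted p = 0.0214). Quantile normalisation, which changes the shape of each library, gave *Id1* 0.40, *Id3* -0.80, *Bmpr1a* -0.43 and *Smad5* -0.40 relative to the median. A correction for exon length, added after seeing the data, gave *Bmpr1a* 0.48 and *Smad5* 0.52 as fitted (limma adjusted p = 1.57e-07 and 1.05e-07), and moved other members too. Relative to the median it gave *Id1* 0.37 and *Id3* -0.91, and as fitted *Smad1* was at -0.26 (limma adjusted p = 0.0093), so the size of most members' differences depended on this choice.

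**Figure D2:**
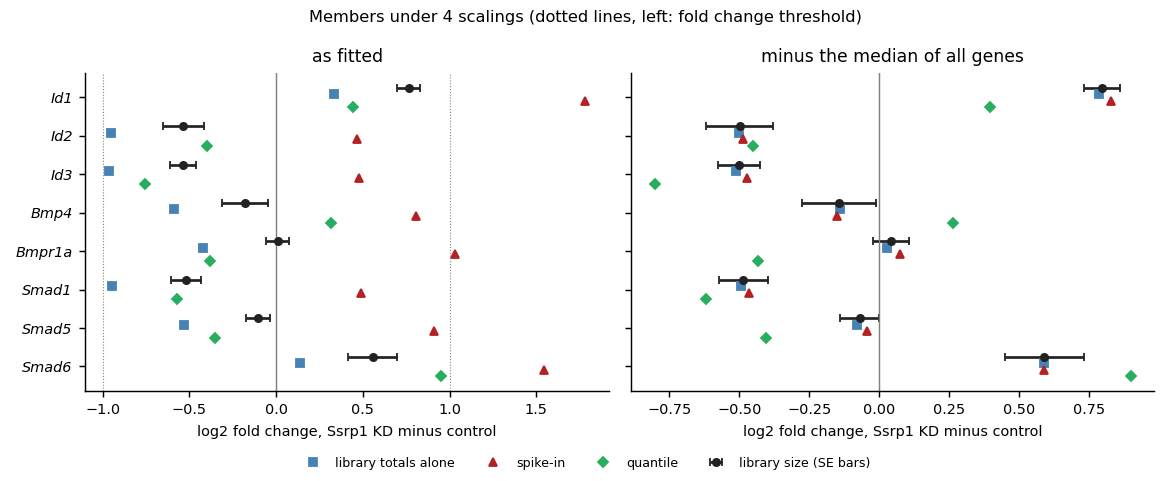
Log2 fold change of KD minus control (horizontal axis) for the 8 members under 4 scalings, as fitted (left) and after subtracting the median of all genes (right); bars are the SE of the library-size fit. Library size, library totals and spike-in spread widely on the left and nearly coincide on the right, while quantile normalisation stands apart for several members.

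Ratios of reads between members of the same library do not depend on any scaling factor. Quantile normalisation and the correction for exon length do not treat all genes alike, so they can change such ratios. The reads of *Id1* over those of *Id3* gave 1.01, 1.15, 1.04 and 1.08 in control and 2.82, 2.76, 2.55 and 2.49 in KD. Reads of both genes were thus nearly equal in every control library and at least 2.49-fold apart in every KD library. The ratio was 2.48-fold higher in KD (log2 difference 1.31, exact permutation p = 0.0286, adjusted p = 0.0357 over 5 ratios). *Id2* over *Id1* went from 0.459, 0.357, 0.331 and 0.380 to 0.154, 0.169, 0.153 and 0.135, a ratio 2.49-fold lower (exact permutation p = 0.0286, adjusted p = 0.0357). In both ratios 1 gene lay wholly above and the other wholly below control in KD. The p-values of these ratios were thus fixed at the smallest possible and add no support to the results of the single genes. *Id2* over *Id3* was 0.463, 0.411, 0.346 and 0.410 in control and 0.434, 0.465, 0.390 and 0.337 in KD, so that both groups covered the same range (log2 difference -0.01, exact permutation p = 1.0). Within the family, *Id1* parted from *Id2* and *Id3*, and no difference between the latter pair was detected in these ratios. After quantile normalisation, the log2 fold change as fitted was -0.40 for *Id2* and -0.75 for *Id3*.

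Among the Smads, the reads of *Smad6* over those of *Smad1* were 0.221, 0.366, 0.362 and 0.461 in control and 0.798, 0.729, 0.744 and 0.672 in KD. The inhibitory Smad was 2.16-fold higher relative to the receptor Smad in KD, with no overlap (exact permutation p = 0.0286, adjusted p = 0.0357). This p was likewise fixed, because *Smad6* lay wholly above and *Smad1* wholly below control in KD. *Smad5* over *Smad1* was 1.58, 1.55, 1.59 and 1.76 in control and 2.31, 1.95, 2.26 and 2.18 in KD. It was 1.34-fold higher, again with no overlap between groups (exact permutation p = 0.0286, adjusted p = 0.0357). The size of this difference varied with corrections that treat genes unequally. As fitted, *Smad5* and *Smad1* were at -0.35 and -0.57 after quantile normalisation, and at 0.52 and -0.26 with the exon-length correction.

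**Figure D3:**
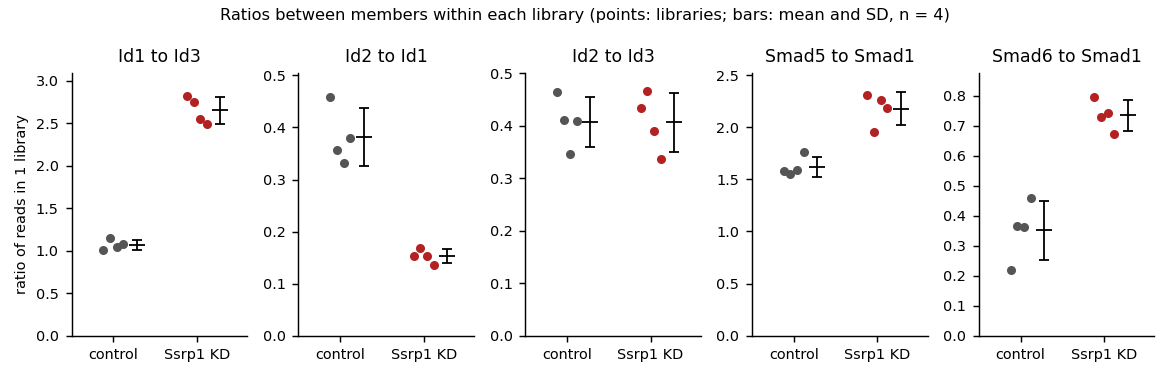
Ratio of the reads of 2 members in the same library (vertical axis, from 0) in control (grey) and KD (red); points are libraries, and bars give the mean and SD of 4. *Id1* to *Id3* lies near 1 in control and at 2.49 to 2.82 in KD, whereas *Id2* to *Id3* covers the same range in both.

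Levels were compared between genes only per kilobase of exon. In control, the library-size value per kilobase was 66.1 ± 4.79 for *Id1* and 59.1 ± 5.20 for *Id3* (SD, n = 4), whose ranges over libraries overlapped. *Bmpr1a* followed at 22.7 ± 2.08 and *Id2* at 18.2 ± 3.51, which also overlapped. *Smad1* (10.7 ± 0.56) and *Smad5* (7.35 ± 0.43) were each apart from their neighbours. *Bmp4* (4.87 to 6.56 over libraries) and *Smad6* (2.61 to 4.88) came last and touched at 1 library each. In KD, *Id1* stood alone at 110.0 to 113.9 per kilobase, and *Id3* followed at 38.3 to 42.7. *Bmpr1a* (21.6 to 23.2) and *Id2* (10.7 to 13.6) no longer overlapped. *Smad1* (6.61 to 7.96) then overlapped *Smad5* (6.49 to 7.16), and *Smad6* (5.33 to 5.96) overlapped *Bmp4* (4.65 to 5.56). By this overlap of ranges, the groups differed in that *Id1* was apart from *Id3* and *Bmpr1a* from *Id2* in KD and not in control, and *Smad1* was apart from *Smad5* in control and not in KD. *Smad6* and *Bmp4* overlapped in both groups, with the higher mean in *Bmp4* in control and in *Smad6* in KD.

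The authors' mean log2 expression per gene was set beside these levels. The table does not say whether it averages the libraries with or without spike-in RNA, so it may hold the same libraries. After subtracting the log2 of the exon length in kilobases, the authors' mean over the libraries of the KD table was 6.71 for *Id1*, 6.14 for *Id3*, 4.70 for *Bmpr1a*, 4.10 for *Id2*, 3.69 for *Smad1*, 3.22 for *Smad5*, 2.37 for *Bmp4* and 2.34 for *Smad6*. In the table of neural progenitor cells (NPCs; embryoid bodies treated with 1 µM retinoic acid for 4 days and left 3 days without LIF) and mESCs, the authors' mean was highest for *Id3*, at 7.08, followed by *Id1* at 6.56 and *Id2* at 4.96. The remaining members there lay between 4.71 (*Bmpr1a*) and 2.73 (*Smad6*). Each mean pools both cell states of its table, so it does not give the level of either.

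RNA bound to chromatin gave few counts for the members. The 2 libraries held 3441643 and 3393923 counts on genes, of which the 10 most counted genes took 69.9% and 67.3%. *Id1* had 7 and 4 counts, *Id3* 7 and 7, and *Id2* 2 and 1. Exact 95% Poisson intervals, which cover counting error only, ran from 2.81 to 14.4 for 7 counts and from 0.0253 to 5.57 for 1 count. *Bmp4* had 4 and 16 counts, *Bmpr1a* 22 and 51, *Smad1* 4 and 9, *Smad5* 26 and 46, and *Smad6* 4 and 7. As RPKM over both libraries, *Id3* (2.15), *Bmpr1a* (2.00) and *Id1* (1.77) stood highest and *Id2* (0.345) lowest. Over both libraries the counts per kilobase were 14.7 for *Id3* (exact 95% interval 8.03 to 24.6) and 2.36 for *Id2* (0.486 to 6.89), which did not overlap, while *Id1* (6.03 to 21.6) overlapped both. Within a single library the intervals of the *Id* genes' counts overlapped. The pooled intervals also cover counting error only and leave out spread between the 2 libraries, such as 4 and 16 counts for *Bmp4*. No difference between *Id3* and *Id2* is drawn from them.

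FACT peaks lay at 6 of the 8 members for SSRP1 (36.0% of all tested genes had an assigned peak) and at 4 of 8 for SUPT16 (18.6% of all genes). *Id2* and *Bmp4* had no assigned peak of either subunit. The study's assignment reached far from genes, so distances matter. Within 1000 bp of an annotated start site, 3 members had an SSRP1 peak (*Id1*, *Smad1* and *Smad5*; 26.4% of 14583 genes with a start) and 2 had a SUPT16 peak (*Smad5* and *Smad6*; 15.9%).

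Inside *Id1*, an SSRP1 peak of 392 bp (chr2:152736529-152736920) began 278 bp after the start site, in the coding part of an exon. Further SSRP1 peaks assigned to *Id1* lay 12.3 kb and 11.5 kb upstream (chr2:152723789-152724082 and chr2:152724573-152724866), outside any annotated gene, and a SUPT16 peak (chr2:152739441-152739930) lay 3.4 kb downstream of the start, beyond the gene. *Id3* had no peak in the gene. Its SSRP1 peaks lay 8.0 kb upstream (chr4:136135721-136136014) and 2.7 kb after the start (chr4:136146403-136146696), and its SUPT16 peak 3.8 kb after the start (chr4:136147411-136147830). At both genes a SUPT16 peak thus stood beyond the end of the gene, and no peak of either gene overlapped one of the other subunit. The downstream SSRP1 peak of *Id3*, an intergenic stretch of 294 bases at 43.2% G and C, is printed on the plus strand because it held GTCTG at 2 places (capitals), as did the *Id3* promoter. No other peak was searched for this short motif, which 53.2% of genes held in a promoter window, so no link between peak and promoter is shown.
Id3 downstream SSRP1 peak: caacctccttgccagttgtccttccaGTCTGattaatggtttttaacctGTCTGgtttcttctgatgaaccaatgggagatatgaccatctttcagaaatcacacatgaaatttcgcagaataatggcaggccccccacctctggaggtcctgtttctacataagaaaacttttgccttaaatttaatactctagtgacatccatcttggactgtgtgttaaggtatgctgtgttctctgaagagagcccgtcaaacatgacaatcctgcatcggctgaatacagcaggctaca

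At 3 Smad genes, peaks lay at or near start sites. An SSRP1 peak of 686 bp (chr8:79399209-79399894) covered the start of *Smad1* and all of the promoter printed above. An SSRP1 peak of 392 bp (chr13:56702997-56703388) and a SUPT16 peak of 210 bp (chr13:56703011-56703220) both covered start sites of *Smad5*, with the SUPT16 peak wholly inside the SSRP1 peak. *Smad5* was the single member at which peaks of both subunits overlapped. A SUPT16 peak of 420 bp (chr9:64022211-64022630) lay 152 bp upstream of the *Smad6* start, overlapping the printed promoter, and another (chr9:64019971-64020180) lay in an intron 2.0 kb inside the gene. The SSRP1 peak assigned to *Smad6* (chr9:63983319-63983906) was in an intron 38.4 kb from the start, and that of *Bmpr1a* (chr14:34459349-34459642) in an intron 43.1 kb from the start. A second SSRP1 peak assigned to *Smad1* (chr8:79332569-79333156) lay beyond the end of the gene. Members with a peak near the start thus included 1 that was higher in KD at adjusted p alone for each subunit (*Id1*, *Smad6*), 1 that was lower (*Smad1*) and 1 that missed the threshold (*Smad5*). The lists give positions without heights, so peaks could not be ranked.

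**Figure D4:**
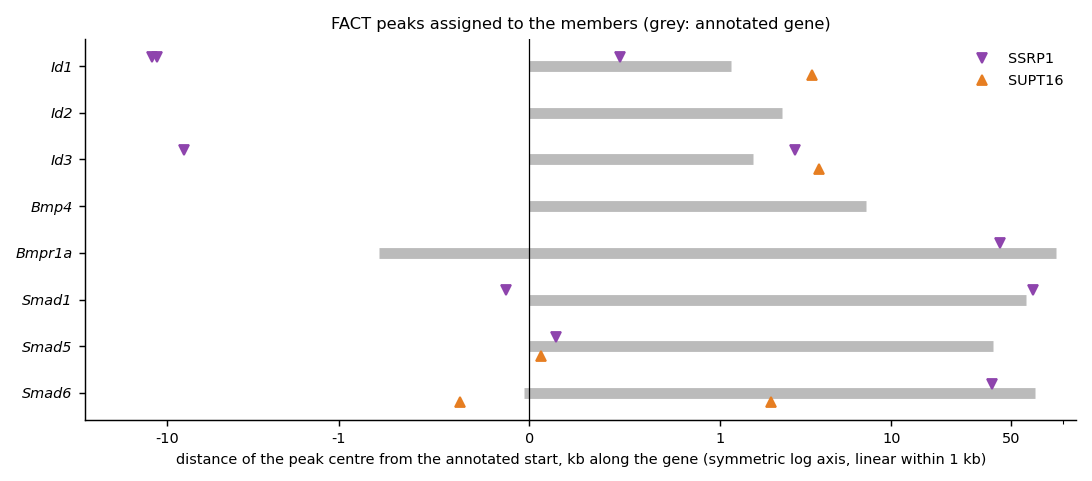
Distance of each assigned peak's centre from the nearest annotated start of the member, in kb along the gene (horizontal axis, symmetric log scale, linear within 1 kb); purple triangles are SSRP1 peaks, orange triangles SUPT16 peaks, and grey bars the annotated genes. Peaks sit within 1 kb of the start at *Id1*, *Smad1*, *Smad5* and *Smad6*, and none is drawn for *Id2* and *Bmp4*.

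The other genes of the pathway were counted by role, from 9 lists with 68 genes, of which 49 had a value. Of these 49, 16 passed both thresholds, all lower in KD (20.6% of all genes were called lower and 8.07% higher). At adjusted p below 0.01 alone, 10 of the 49 were higher and 28 lower, beside 35.4% and 37.3% of all genes. The median log2 fold change of the 49 was -0.52, against -0.03 over all genes. This split followed the scaling: 2 lower and 17 higher were called with spike-in scaling (7.03% and 48.1% of all genes). After quantile normalisation 6 were lower and 1 higher, where 1656 of all 15384 genes were called lower and 1518 higher (20.6% either way). With library totals alone 21 were lower and 0 higher, where 4696 of all genes were called lower and 343 higher (32.8% either way). Of the 16 calls, 2 were kept with spike-in scaling (*Bmper* and *Bmp1*) and 4 after quantile normalisation (these with *Acvrl1* and *Furin*), and 12 were lost under both. After a filter at a mean value of 5, 9 of the 16 called genes remained, and all 9 kept their calls. The rest were too low for this filter: *Bmp6*, *Bmpr1b*, *Rgma*, *Hfe2*, *Nbl1*, *Hey1* and *Bmper*. *Bmper*, though kept under both scalings, rested on 3 to 20 reads per KD library. Over all genes, calls lower went from 3163 to 2024 with this filter. The falls described next are those of the library-size values.

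Of 5 BMP ligands with a value, 3 fell and none rose, with a list median of -1.28. *Bmp8a* fell from 9.12 to 12.6 in control to 2.22 to 4.12 in KD, *Bmp6* from 4.49 to 6.02 to 1.10 to 2.17, and *Bmp7* from 12.6 to 14.8 to 4.57 to 6.57. *Bmp4* and *Bmp8b* did not pass both thresholds. No ligand was called lower with spike-in scaling (list median -0.30) or after quantile normalisation (-0.31). Of 7 BMP receptors, 3 type I receptors fell: *Acvrl1* (log2 fold change -1.88), *Bmpr1b* (-1.25) and *Acvr1* (-1.07), while the list median was -0.40. At adjusted p alone, 1 receptor was higher and 5 were lower. At that cutoff none of the ligands was higher and 4 were lower. Of 4 co-receptors, *Rgma* (-1.83) and *Hfe2* (-1.01) fell past both thresholds, and all 4 were lower at adjusted p alone. The call of *Hfe2* was lost without control replicate 2 (-0.85) or 3 (-0.99), without KD replicate 1 (-0.93) or 4 (-0.93), and with DESeq2 size factors (-0.98), and its values were low, at 4.36 to 8.09 in control. With a pseudocount of 2, *Hfe2* (-0.75), *Bmpr1b* (-0.92), *Acvr1* (-0.92), *Nbl1* (-0.99) and *Hey1* (-0.91) fell short of the fold change threshold. With the correction for exon length, *Hfe2* (-0.91), *Bmpr1b* (-0.77) and *Acvr1* (-0.78) did so.

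Of 4 receptor and common Smads, *Smad9*, the receptor Smad next to *Smad1* and *Smad5*, fell from 6.81 to 11.5 in control to 2.27 to 3.21 in KD (log2 fold change -1.60 ± 0.19, SE, limma adjusted p = 2.73e-08). None of the 9 intracellular inhibitors passed both thresholds, and their median was 0.25. At adjusted p alone 5 of them, *Smad6* included, were higher and 2 lower, beside 35.4% and 37.3% of all genes. Of 7 extracellular antagonists, which bind ligands outside the cell, *Bmper* (-2.66), *Chrd* (-1.76) and *Nbl1* (-1.44) fell. At adjusted p alone, 1 antagonist was higher and 4 were lower. *Bmper* is also known to promote BMP signals in some settings.

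Of 10 target genes, the transcription factors *Msx2* (-1.57) and *Hey1* (-1.22) fell, and at adjusted p alone 4 targets were higher and 4 lower, near the shares of all genes (35.4% and 37.3%). The *Id* genes and *Smad6* are in this list, so their values count there too. Of 3 E proteins, the partners held by Id proteins, none passed both thresholds (median 0.14). Of 3 ligand proteases, *Bmp1* (-2.01), a metalloprotease that cleaves chordin and not a ligand, and *Furin* (-1.67), which processes precursors, fell.

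**Figure D5:**
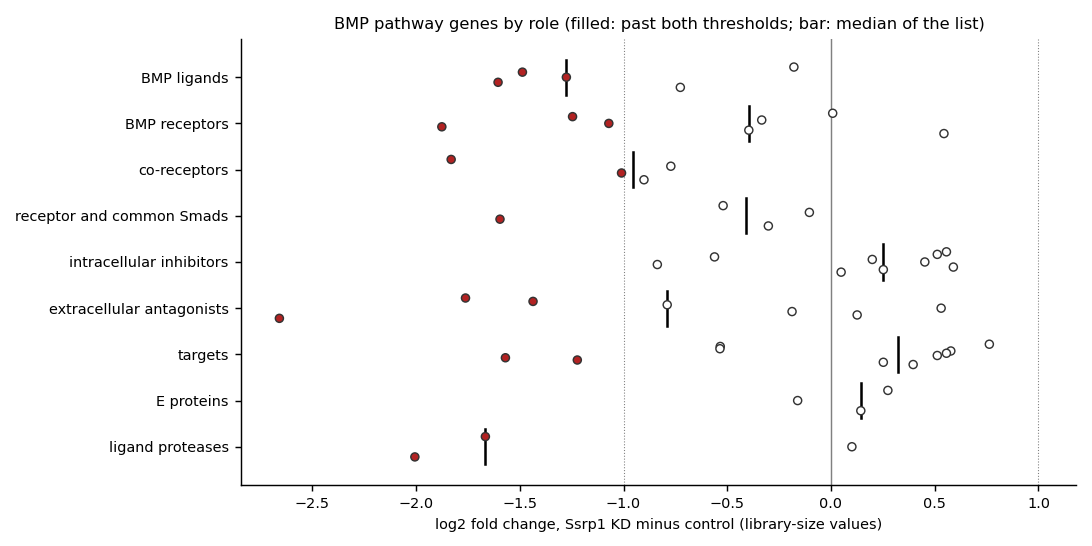
Log2 fold change of KD minus control (horizontal axis, library-size values) for each measured gene of 9 pathway lists; filled points passed both thresholds, dotted lines mark the fold change threshold, and black bars are list medians. All 16 filled points are on the lower side, in 7 of the 9 lists, and the lists of inhibitors and E proteins hold none.

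The genes most alike in pattern over the 8 libraries were found by Pearson's r of log2 values, given as a description. For *Id1* they were *Gm7367* (r = 0.999), *Sar1a* (0.999) and *Taldo1* (0.999), and 3146 genes had an r of 0.95 or more. For *Id3* they were *Igf2r* (0.992), *Sowahb* (0.992) and *Rb1cc1* (0.992), with 723 such genes. For *Id2* they were *Arl13b* (0.986), *Fuca1* (0.973) and the mitochondrial *COX2* (0.973), with 27 such genes. Among the members, *Id3* was most alike to *Smad1* (0.944), and *Id1* was opposite to both *Id3* (-0.899) and *Smad1* (-0.936). With 4 libraries in each of 2 groups, these values mainly repeat which genes differ between groups and how little they spread within one.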

How the data were processed

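The authors aligned RNA-seq reads to mm10 with STAR, counted them per gene with featureCounts and deposited a signal per library: gene counts divided by a scaling factor, once from library size and once from spike-in RNA. The deposited library-size scaling equalled TMM-scaled library size within 1%. Values were whole reads within a tolerance of 0.1 read for 100% of entries, and reads were recovered from this step. The log2 averages deposited by the authors in 2 limma tables were used, while their fold changes and p-values were not, nor was a table of exon use that holds the latter. Chromatin RNA was deposited by the authors as raw counts. Peak positions and exon lengths (bp, other units) were deposited by the authors, who called peaks with PePr on both replicates together and assigned them with ChIP-Enrich.

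Library-size values of 15384 genes were tested in 1 fit as log2(value + 0.5) with limma 3.58.1 (trend), and fold changes on this scale understate changes of low genes. Each limma, edgeR and DESeq2 adjusted p was computed over all genes tested, by Benjamini-Hochberg. The fit was repeated in R 4.3.3 with edgeR 4.0.16 or DESeq2 1.42.0 on the recovered reads, with other scalings, pseudocounts (0.1 and 2) and a filter (mean value of 5), with a block for the replicate number, and without each library in turn. On simulated reads for this comparison (15384 genes, 200 changed 4-fold), limma, edgeR and DESeq2 each recovered 100% with 0 false calls. The changed genes were drawn only from well-covered genes, and the same small spread was set for all genes. This checked that the tools ran, and does not show that changes as small as those of the members would be found. Single genes and ratios were compared by exact permutation tests in SciPy 1.17.1, with p-values unadjusted for genes and adjusted over 5 ratios. Peak starts were read as 0-based and printed 1-based, and distances used curated RefSeq transcripts.

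Named were the 8 members, *Ssrp1* and *Supt16*, of each pathway list up to 3 called genes with the largest fold change per direction, and the 3 genes most alike to each of *Id1*, *Id2* and *Id3*. *Id4*, *Smad7* and *Bmp8b* were named as relatives of members after their values were seen. The members and lists were chosen with earlier results of these data known. MNase-seq, ATAC-seq and NET-seq were not analysed here.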

Additional observations from a re-analysis of the deposited data

Results flagged for a closer look

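Of 26 groups of 4 libraries tested for a value far from the rest, 3 were marked, where chance gives about 1 in 20. *Bmpr1a* stood at 115.1 in KD replicate 4, below the other KD libraries at 123.5 to 123.9. *Smad1* stood at 35.1 in control replicate 1, above the other control libraries at 31.5 to 32.0. The *Smad5* to *Smad1* ratio stood at 1.76 in control replicate 4, against 1.55 to 1.59 in the other control libraries. The cause was not tested.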

How the results depend on the processing

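The limits were these. Scaling decided the sign of single members, control libraries held fewer reads than KD libraries, and the members had few chromatin RNA counts. The count of genes called (4405) became 8476 with spike-in scaling (7394 higher and 1082 lower) and 11192 at adjusted p below 0.01 alone (5447 higher and 5745 lower). Calls higher, 1242 at first, were 343 with library totals alone, and calls lower, 3163 at first, were 2024 after a filter at a mean value of 5 and 1656 after quantile normalisation. Members called went from 0 to 3 with spike-in scaling and 5 at adjusted p alone, and members whose groups did not overlap from 5 to 2 with spike-in scaling. Called genes of the pathway lists went from 16 to 7 after quantile normalisation. With peaks of at least 500 bp only, members with an assigned peak were 2 for SSRP1 (17.6% of all genes) and 0 for SUPT16 (6.08%). Members with such a peak near the start were then 1 and 0, and members with overlapping peaks 0. The share of all genes was not counted for these last rules. With a window of 5000 bp, 4 members had a SUPT16 peak near the start (18.5% of genes with a start). With the core GGCGC, 5 members held the motif (39.4% of genes with a window).

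Signs turned with spike-in scaling for *Id2* (0.47), *Id3* (0.48), *Bmp4* (0.80), *Smad1* (0.49) and *Smad5* (0.91), and with quantile normalisation for *Bmp4* (0.31), *Bmpr1a* (-0.38) and *Hfe2* (0.13). With spike-in scaling *Id2*, *Id3* and *Smad1* missed the adjusted p threshold. *Bmpr1a*, near 0 with the library-size values, was at -0.42 with library totals alone, at -0.0027 with edgeR and at -0.0406 to 0.0482 with single libraries left out. A loess correction for exon length turned *Smad5* to 0.52; this and library totals alone were chosen after seeing the data. The cause was not tested for any of these.

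Leaving out 1 library gave 4254 to 4635 genes called, 0 members called in every case, and 5 or 6 members whose groups did not overlap. The sign of *Id1*, *Id2*, *Id3*, *Smad1* and *Smad6* and their adjusted p below 0.01 held in all 8 cases. The log2 difference of *Id1* to *Id3* ranged from 1.28 to 1.34. Replicate numbers did not pair the samples (correlations of same-numbered libraries -0.06 to 0.02), and with a replicate block 4405 genes and 0 members were called. With no trend, the adjusted p of *Smad6* was 0.0105.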
